A study of Mus musculus with 3 samples.

Results

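The unfolded protein response and the integrated stress response were described here through 9 genes, Ddit3, Atf4, Hspa5, Xbp1, Chac1, Trib3, Herpud1, Dnajb9 and Asns, in epidermis of 3 genotypes of mice. The genes were taken by symbol from an array that measured 24011 named genes, and all 9 were found, each above the median signal of all values on at least 1 array. Epidermal RNA was hybridised to 3 arrays, 1 per genotype. TNF KO mice (TNF-/-) lacked TNF in every cell and kept cFLIP, the inhibitor of caspase-8 encoded by Cflar. cFLIP KO mice (cFLIP fl/fl K14CreERtam) lost cFLIP in keratinocytes alone, because the keratin 14 promoter drives the tamoxifen-inducible Cre recombinase in these cells. cFLIP KO/TNF KO mice (TNF-/- cFLIP fl/fl K14CreERtam), called the double knockout below, carried both defects. All 3 genotypes received tamoxifen on depilated back skin on 3 days, and the study places the skin at 72 h after the first application. Per the labels, RNA of 4 animals was pooled for each array, and neither age nor sex was given in the sources used here. With 1 array of a pool per genotype there was no replicate error, no test could be run, and every "higher" or "lower" refers to single arrays. No wild-type array was used, so cFLIP KO and TNF KO differed at both genes, and the methods give no Cre transgene for TNF KO, so for a difference common to both cFLIP-deficient genotypes, Cre itself and the loss of cFLIP cannot be told apart.

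The unfolded protein response is set off when unfolded proteins gather in the endoplasmic reticulum, and it runs through 3 sensors, PERK, IRE1 and ATF6. PERK and its sister kinases phosphorylate the translation factor eIF2α, which lowers protein synthesis in general but favours translation of ATF4, and this common branch is the integrated stress response, also open to amino acid shortage, heme shortage and viral RNA. IRE1 splices the mRNA of XBP1 into the form that encodes the active factor. Together these factors raise chaperones, degradation factors and amino acid enzymes, and, through CHOP (the product of Ddit3), genes linked to cell death. ATF4 is governed mainly by translation and XBP1 by splicing, and the array measured total mRNA, so neither activity was read directly.

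The promoters of 5 of the genes held a motif by which these factors are known to bind, and they are shown because the genes fall into both directions described further below. Each window runs from 250 bases before to 50 bases after the annotated start site, 5′ to 3′ on the strand of the gene, from RefSeq in the build GRCm38.p6, and capitals mark the matches.
Hspa5 (chr2:34771840-34772139, plus strand): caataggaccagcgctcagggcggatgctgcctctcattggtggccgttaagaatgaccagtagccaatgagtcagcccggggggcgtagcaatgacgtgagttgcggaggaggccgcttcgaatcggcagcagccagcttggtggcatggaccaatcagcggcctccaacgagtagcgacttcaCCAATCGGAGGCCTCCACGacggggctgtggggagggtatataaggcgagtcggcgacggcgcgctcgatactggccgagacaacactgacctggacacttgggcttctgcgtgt
Herpud1 (chr8:94386179-94386478, plus strand): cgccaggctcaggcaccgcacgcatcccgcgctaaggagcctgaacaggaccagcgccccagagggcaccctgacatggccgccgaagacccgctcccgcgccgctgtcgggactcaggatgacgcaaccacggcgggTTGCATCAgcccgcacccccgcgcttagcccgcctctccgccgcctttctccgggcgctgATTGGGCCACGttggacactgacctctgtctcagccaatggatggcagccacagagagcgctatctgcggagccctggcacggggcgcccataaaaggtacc
Chac1 (chr2:119350992-119351291, plus strand): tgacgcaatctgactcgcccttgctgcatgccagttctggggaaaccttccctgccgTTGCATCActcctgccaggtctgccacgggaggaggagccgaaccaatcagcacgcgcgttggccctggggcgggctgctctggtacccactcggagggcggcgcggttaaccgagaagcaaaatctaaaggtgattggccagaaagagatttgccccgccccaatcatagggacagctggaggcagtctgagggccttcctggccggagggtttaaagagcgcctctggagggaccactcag
Asns (chr6:7693160-7693459, minus strand): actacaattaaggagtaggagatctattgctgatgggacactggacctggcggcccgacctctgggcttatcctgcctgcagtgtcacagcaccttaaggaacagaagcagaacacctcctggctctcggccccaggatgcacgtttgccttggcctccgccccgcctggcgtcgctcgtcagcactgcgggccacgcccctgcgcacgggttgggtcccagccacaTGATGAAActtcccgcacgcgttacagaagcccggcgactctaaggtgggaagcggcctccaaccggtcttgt
Trib3 (chr2:152344011-152344310, minus strand): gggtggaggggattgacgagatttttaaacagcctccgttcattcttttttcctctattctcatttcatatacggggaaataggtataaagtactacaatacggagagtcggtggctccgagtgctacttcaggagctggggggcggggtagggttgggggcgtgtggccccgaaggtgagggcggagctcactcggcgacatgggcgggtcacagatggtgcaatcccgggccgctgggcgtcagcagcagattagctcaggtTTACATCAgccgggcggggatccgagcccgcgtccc

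The search covered 4 motifs on both strands. The ER stress response element ERSE is CCAAT and CCACG separated by 9 bases, and it is read by ATF6 with the factor NF-Y. It stood in the promoter of Hspa5, which was 1 of 39 such windows among 32851 (0.119%). ERSE-II is ATTGG and CCACG separated by 1 base and stood in Herpud1, 1 of 12 windows (0.0365%). The element bound by ATF4 with C/EBP factors, CARE, was searched as TGATGNAA. It was found in Chac1, Asns, Trib3 and Herpud1 and in 3.97% of all windows. The XBP1 element UPRE, searched as TGACGTGG, was in none of the 9 and in 0.676% of windows. Ddit3, Atf4, Xbp1 and Dnajb9 held none of the 4 in this window, which says only that these letters are not there. No 2 matches overlapped. A match is a description of letters and was not tested for binding.

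**Figure D1:**
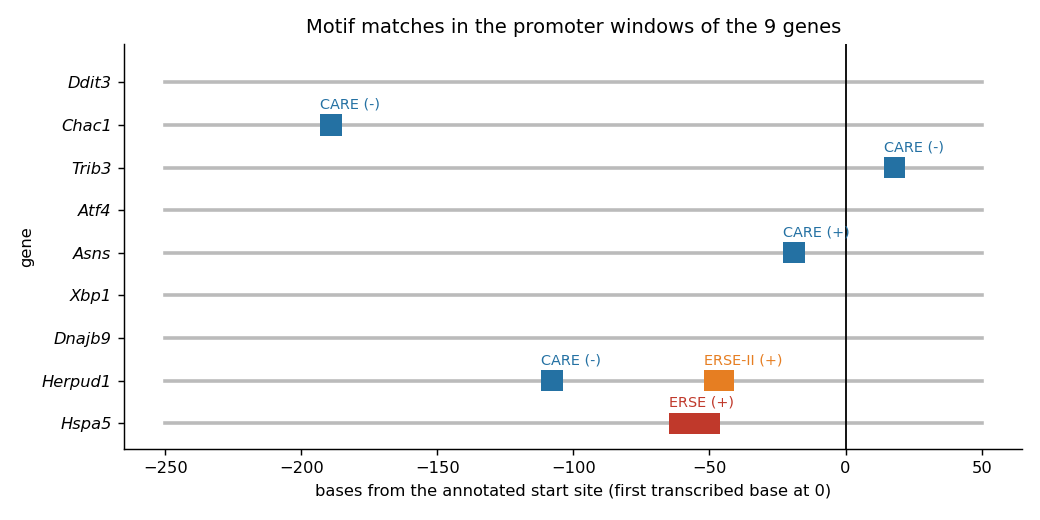
Matches of the motifs ERSE, ERSE-II and CARE (coloured bars, strand in brackets) along the promoter windows of the 9 genes (grey lines), in bases from the annotated start site. Matches stood in 5 of the 9 windows, from base -193 in Chac1 to base 21 in Trib3.

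On the cFLIP KO array the 9 genes split. Ddit3, Chac1 and Trib3 lay higher than on the TNF KO array by 0.66 to 0.83 on the log2 scale. The ER co-chaperone gene Dnajb9 and the degradation gene Herpud1 lay lower by more than 2-fold. On the double-knockout array all 9 lay within 0.19 of TNF KO as deposited. Closeness of these 2 arrays was general, as 52.6% of all 24011 genes had exactly equal deposited values on both. For cFLIP KO and TNF KO, 23.2% of all genes were equal. Why separate arrays hold equal values was not tested. Signals were log2 values, and they are set against each other between arrays only, not between genes, because each gene has probes of its own.

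**Figure D2:**
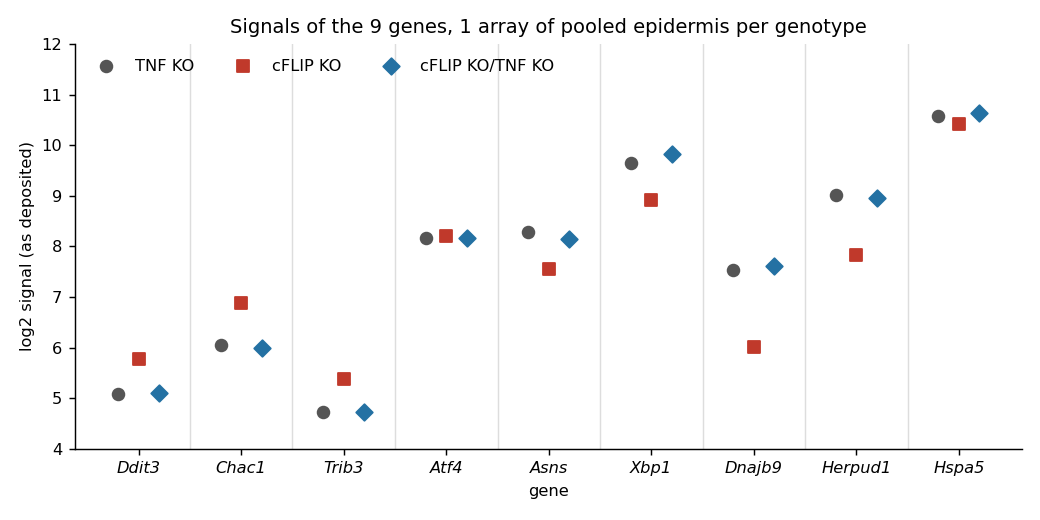
Log2 signal as deposited (vertical axis) of the 9 genes (horizontal axis) on the TNF KO (grey circles), cFLIP KO (red squares) and cFLIP KO/TNF KO (blue diamonds) arrays, 1 array of pooled RNA each and so without error bars. The cFLIP KO square stands apart from the other symbols in Ddit3, Chac1 and Trib3 (above) and in Asns, Xbp1, Dnajb9 and Herpud1 (below), while the grey and blue symbols lie close together throughout.

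Ddit3 encodes CHOP, the transcription factor that ties prolonged ER stress to cell death. Its log2 signal was 5.09 (TNF KO), 5.77 (cFLIP KO) and 5.10 (double knockout). The cFLIP KO array was thus the high one, by 0.68 or 1.60-fold over TNF KO, a difference larger than that of 91.4% of all genes. Chac1, a target of ATF4 and CHOP whose enzyme degrades glutathione, had signals of 6.05, 6.88 and 6.0 in the same order. Its difference of 0.83 (1.78-fold) from TNF KO was the largest upward one among the 9 and exceeded that of 94.1% of genes. Trib3, a pseudokinase gene induced by CHOP and ATF4 that restrains the kinase AKT, had signals of 4.72, 5.37 and 4.72. It was higher in cFLIP KO by 0.66 (1.57-fold), above 90.9% of genes, and the deposited values of TNF KO and the double knockout were equal. Differences of cFLIP KO from the double knockout were 0.67 for Ddit3, 0.88 for Chac1 and 0.66 for Trib3. None of the 3 reached 2-fold as deposited in either comparison.

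Atf4, the gene of the common effector of the eIF2α kinases, had signals of 8.17 (TNF KO), 8.21 (cFLIP KO) and 8.17 (double knockout), and so lay at nearly the same level on all arrays. Asns, which encodes asparagine synthetase and is a classic target of ATF4, had signals of 8.29, 7.56 and 8.15. As deposited, it lay 1.66-fold below TNF KO in cFLIP KO (-0.73), the opposite side from Chac1 and Trib3, although all 3 promoters hold CARE. Its difference from the double knockout was -0.60. Once the signal trend described below was subtracted, Asns was at -0.11 against TNF KO and -0.01 against the double knockout.

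Xbp1, the gene of the factor made by the IRE1 branch, had signals of 9.64 (TNF KO), 8.92 (cFLIP KO) and 9.83 (double knockout). It was lowest in cFLIP KO, by 0.72 (1.65-fold) against TNF KO and with a difference of -0.91 against the double knockout, where its 0.19 above TNF KO was the largest difference of the 9. Dnajb9, whose product ERdj4 is a co-chaperone of BiP in the reticulum and a known XBP1 target, had signals of 7.54, 6.0 and 7.61. Its difference of -1.54 between cFLIP KO and TNF KO (2.90-fold lower) was the largest of the 9, with only 3.71% of all genes further down, and that from the double knockout was -1.61. Herpud1, a membrane protein gene of ER-associated degradation, had signals of 9.01, 7.83 and 8.96. Its cFLIP KO level was 2.26-fold below that of TNF KO (-1.18), with 6.98% of genes further down, and differed from the double knockout by -1.13. Hspa5 encodes BiP, the main chaperone of the reticulum and the usual readout of the response. Its signals of 10.58, 10.42 and 10.63 differed little, with -0.17 for cFLIP KO against TNF KO and -0.21 against the double knockout.

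Counted together, 0 of the 9 stood 2-fold or more above TNF KO in cFLIP KO and 2 stood 2-fold or more below it (Dnajb9 and Herpud1). Of all genes, 3.88% were that much higher and 9.15% that much lower. In the double knockout against TNF KO none passed in either direction, where 0.629% of all genes were higher and 0.225% lower. For cFLIP KO against the double knockout these 2 were lower again and 0 higher, against 8.07% and 3.32% of all genes. The median of the 9 differences was -0.17, 0.00 and -0.21 in these comparisons, and the median of all genes was 0.00 in each. The comparisons share arrays, so the repeated direction in cFLIP KO is not independent.

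The cFLIP KO array as a whole lay lower for bright genes, which moved with these results. The SD of the deposited values over genes was 1.78 on it, 2.06 for TNF KO and 2.04 for the double knockout. A lowess trend of the difference on mean signal was -0.36 at the signal of Dnajb9, -0.68 at Herpud1, -0.74 at Xbp1, -0.62 at Asns, -0.66 at Atf4 and -0.78 at Hspa5, but 0.00 at Ddit3 and 0.08 at Trib3. Once it was subtracted, Chac1 was higher by 1.11 and Dnajb9 lower (a difference of -1.17) for cFLIP KO against TNF KO, so that 1 gene passed 2-fold in each direction. Of all genes, 3.9% were then higher and 4.95% lower. Herpud1 was then at -0.50, Asns at -0.11 and Xbp1 at 0.02, while Atf4 stood at 0.70 and Hspa5 at 0.61. Against the double knockout, Chac1 (1.16) and Dnajb9 (-1.23) again passed, where 3.48% of all genes were higher and 4.01% lower. Ddit3 (0.68) and Trib3 (0.57) against TNF KO hardly moved. Thus the direction of Ddit3, Chac1, Trib3, Dnajb9 and Herpud1 in cFLIP KO was kept under all of the 5 scalings plotted, in both comparisons. That of Xbp1, Asns and Hspa5 was not, in at least 1 of the comparisons. Atf4 stayed above 0 under all 5, but from a deposited difference of only 0.04 in both comparisons. After the trend it was at 0.70 against TNF KO and 0.67 against the double knockout, so its size depended on the scaling. What part the signal trend had in the differences was not tested.

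**Figure D3:**
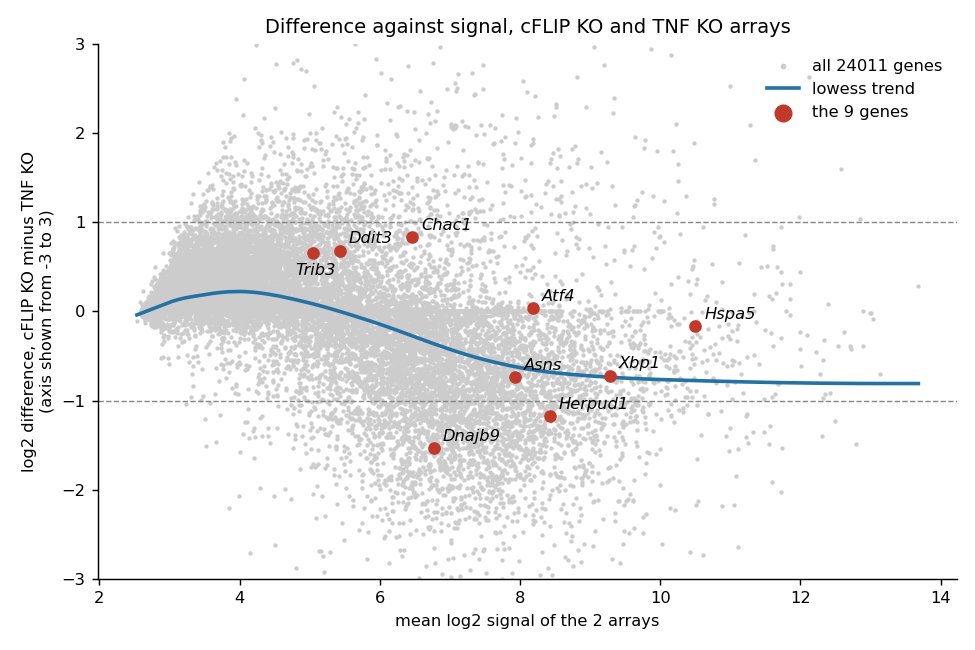
Log2 difference of cFLIP KO minus TNF KO (vertical axis, cut off where few genes lie) against the mean log2 signal of the 2 arrays (horizontal axis), with all genes in grey, the lowess trend as a blue line, the 9 genes in red and dashed lines at 2-fold. Asns and Xbp1 lie near the trend, Dnajb9 and Herpud1 below it, and Chac1, Ddit3, Trib3, Atf4 and Hspa5 above it.

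**Figure D4:**
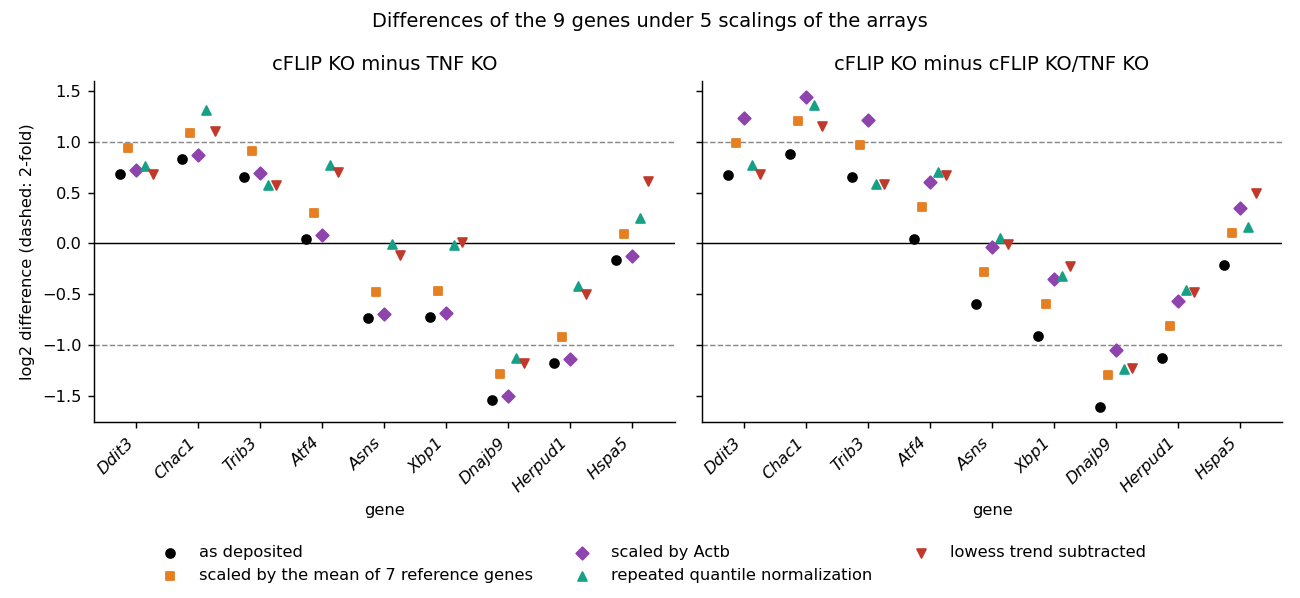
Log2 differences of the 9 genes (vertical axis) for cFLIP KO minus TNF KO (left) and cFLIP KO minus cFLIP KO/TNF KO (right), as deposited and under 4 other scalings of the arrays (symbols), with dashed lines at 2-fold and 1 array per genotype. Dnajb9 is beyond 2-fold under all 5 scalings in both panels, and Chac1 is above 0 in all, from 0.83 to 1.31 on the left.

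Other genes of the pathway were counted from 6 lists, which held 105 measured genes besides the 9. In cFLIP KO against TNF KO, 3 of them (2.86%) were higher by 2-fold or more and 17 (16.2%) lower, beside 3.88% and 9.15% of all genes, with a median of -0.29. After the lowess trend 4 were higher and 3 lower, beside 3.9% and 4.95% of all genes, with a median of -0.02. The counts of single lists for cFLIP KO against TNF KO that follow stand beside the same shares of all genes. Those for cFLIP KO against the double knockout stand beside 3.32% higher and 8.07% lower as deposited. In the double knockout against TNF KO, 1 of the 105 (0.952%) was higher and 0 lower, beside 0.629% and 0.225% of all genes. That 1 was Eif2ak2, the double-stranded RNA kinase PKR, at 6.24 (TNF KO), 6.24 (cFLIP KO) and 7.27 (double knockout). It passed as deposited and after the lowess trend but not under scaling by Actb, by the 7 reference genes or after repeated quantile normalization, and it was named after its values were seen.

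Of 15 stress sensors and eIF2α kinases, 0 passed 2-fold upward and 4 downward in cFLIP KO against TNF KO, with a median of -0.27. Eif2ak1, the heme-regulated kinase HRI, was the lowest, with log2 signals of 7.23 (TNF KO), 5.29 (cFLIP KO) and 7.23 (double knockout). It was the only one of the 4 still past 2-fold after the lowess trend (-1.72). The sensor gene Atf6 (7.46, 6.19 and 7.28) and the genes of the proteases that cleave ATF6, Mbtps1 (7.63, 6.28 and 7.52) and Mbtps2 (6.04, 5.03 and 5.79), lay lower together, at -0.90, -0.93 and -0.98 after the trend. Creb3, a related factor of the reticulum membrane, was at -0.77 as deposited and -0.21 after the trend. Of 10 measured genes of eIF2, its exchange factor eIF2B and the phosphatase that reverses its phosphorylation, 0 were higher and 3 lower. Those were the eIF2B subunits Eif2b1 (-1.87) and Eif2b5 (-1.29) and Dnajc3, which encodes the PERK inhibitor and co-chaperone p58IPK (-1.59). After the trend only Eif2b1 (-1.64) still passed downward, with Eif2b5 at -0.87 and Dnajc3 at -0.99. Ppp1r15a, which encodes GADD34, the stress-induced subunit of that phosphatase and a CHOP target, was on the other side, with log2 signals of 5.43 (TNF KO), 6.34 (cFLIP KO) and 5.43 (double knockout). It differed by 0.91 as deposited and by 1.02 after the trend. Ppp1r15b, the constitutive subunit, was at -0.68 as deposited, -0.11 after the trend and 0.03 after repeated quantile normalization.

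None of 16 ER chaperones and foldases passed 2-fold in cFLIP KO against TNF KO. Their median difference was -0.36 and turned to 0.25 after the lowess trend. Dnajc10 (-0.62), Pdia4 (-0.59), Hyou1 (-0.56), Pdia3 (-0.55) and Canx (-0.54), all folding factors, were the furthest from 0. Pdia4, a disulfide isomerase gene, was the only one past 2-fold for cFLIP KO against the double knockout (-1.12 as deposited and -0.45 after the trend), with log2 signals of 9.06 (TNF KO), 8.47 (cFLIP KO) and 9.59 (double knockout). Of 18 measured genes of ER-associated degradation and translocation, 0 were past 2-fold upward and 5 downward in cFLIP KO against TNF KO, with a median of -0.53. These were Derl2 (-1.73), a channel component, Herpud2 (-1.47), the mannosidase-like genes Edem3 (-1.26) and Edem1 (-1.14) and Vcp (-1.03), the ATPase that extracts substrates. After the trend only Derl2 passed, at -1.33.

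Of 25 measured ATF4 targets in amino acid supply, 0 passed 2-fold upward and 5 downward in cFLIP KO against TNF KO, with a median of -0.43. They were the tRNA synthetase genes Iars (-1.48), Eprs (-1.36) and Gars (-1.26), the cationic amino acid transporter gene Slc7a1 (-1.24) and the serine synthesis gene Psat1 (-1.23). After the trend none passed and the median was -0.05. The list of 21 measured stress regulators and CHOP-linked genes was the one with upward members past 2-fold, 3 of them with 0 downward. Its median was 0.00, or 0.39 after the trend. As deposited, 8 of the 21 lay above TNF KO, 8 below and 5 were equal, so the list did not rise as a whole. Jdp2, an AP-1 repressor gene, had log2 signals of 4.70 (TNF KO), 6.24 (cFLIP KO) and 5.0 (double knockout). Atf3, a stress-induced factor downstream of ATF4, had 6.72, 7.83 and 7.07. Gadd45a, a growth arrest gene also under p53, had 7.24, 8.28 and 7.53. All 3 were past 2-fold in cFLIP KO against TNF KO under each of the 5 scalings, and in the double knockout they lay in between as deposited but below TNF KO under scaling by Actb. Sesn2 (-0.94) and Cebpg (-0.89) were the lowest of this list. Nupr1, a stress-induced chromatin gene named after its values were seen, was the only one past 2-fold downward in cFLIP KO against the double knockout (-1.5 as deposited and -0.83 after the trend), and it did not pass under scaling by Actb or after repeated quantile normalization either. The lists hold genes that answer to other signals too, and a list's count says nothing of which signal acted.

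**Figure D5:**
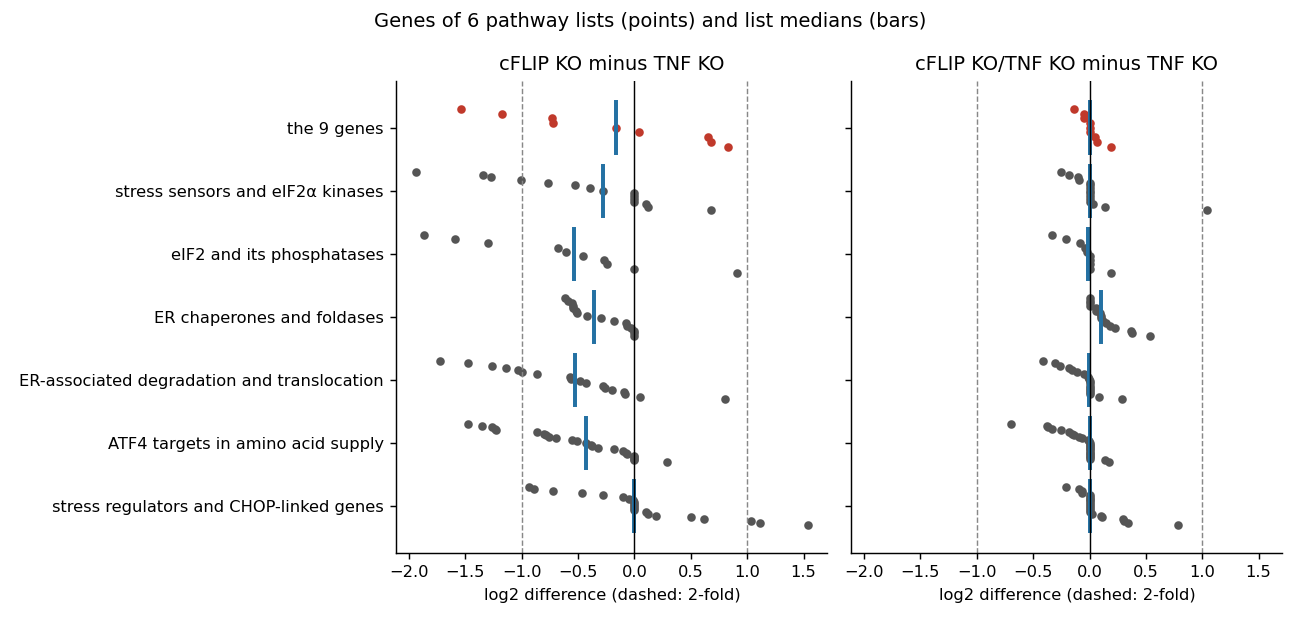
Log2 difference from TNF KO (horizontal axis, dashed lines at 2-fold) of each measured gene (points) of the 9 genes and of 6 pathway lists (rows), in cFLIP KO (left) and the double knockout (right), with list medians as blue bars. In cFLIP KO the list medians run from -0.53 to 0.00, and in the double knockout they lie between -0.01 and 0.10.

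The patterns most like those of the 9 genes were sought by the Euclidean distance over the 2 log2 differences from TNF KO, that is over 3 arrays, which many genes can share. Dnajb9, the gene with the widest range over the arrays (1.61), was nearest among all genes at or above the median signal to Ndufs8 (distance 0.022), Idh3a (0.033) and Hltf (0.033), the first a subunit gene of respiratory complex I and the second an enzyme gene of the citric acid cycle. Within the pathway lists, Dnajb9 was nearest to Dnajc3 (0.13), Herpud1 to Psat1 (0.071), Asns to Sars (0.057), Xbp1 to Creb3 (0.17), Hspa5 to Ero1a (0.014), Atf4 to Sec61b (0.0079) and Chac1 to Derl3 (0.047). Ddit3 (0.067) and Trib3 (0.041) were both nearest to Fgf21. The log2 signals of Fgf21 were 3.80 (TNF KO), 4.41 (cFLIP KO) and 3.80 (double knockout). Those of Derl3 were 3.55, 4.35 and 3.53 in the same order. Both genes were thus dim, with a median of all values of 4.23, and the pathway lists had no limit on signal. Over all measured genes, those with a CARE in the window numbered 709, of which 30 (4.23%) were past 2-fold upward and 43 (6.06%) downward in cFLIP KO against TNF KO, beside 3.88% and 9.15% of all genes, with a median of 0.02. After the lowess trend 24 of the 709 (3.385%) were lower, against 4.95% of all genes, with a median of -0.01. Of 157 with the UPRE, 5 (3.18%) were higher and 26 (16.6%) lower, beside the same shares of all genes, and after the lowess trend 7 (4.46%) were lower, against 4.95% of all genes.

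The labels and the makeup of the tissue were checked on the same arrays. Cflar had log2 signals of 7.0 (TNF KO), 6.29 (cFLIP KO) and 6.53 (double knockout), and Tnf 5.11, 5.79 and 5.21. The sources used here do not place their probes inside or outside the deleted exons, so this checks the labels weakly. The 12 keratinocyte markers had a mean log2 signal of 11.58, 10.72 and 11.50 on the 3 arrays, and 4 were lower by 2-fold or more in cFLIP KO against TNF KO. Their median difference was -0.92 as deposited and -0.11 after the lowess trend, with 2 then lower and 1 higher. Of 12 neutrophil markers, 3 were higher by 2-fold or more in cFLIP KO and 1 in the double knockout, with means of 4.48, 5.28 and 4.65 and 11 of the 12 lay above TNF KO in cFLIP KO and 0 below, while Ly6g was at 2.79 on every array. Of 11 measured monocyte and macrophage markers, 3 were higher in each (means 6.53, 7.27 and 7.12), and of 7 adipocyte markers 4 were higher in the double knockout (means 5.12, 4.89 and 6.31). In cFLIP KO against TNF KO, past 2-fold were 2 of 7 sebocyte markers (lower), 1 of 10 fibroblast markers (lower), 1 of 10 Langerhans and dendritic cell markers (lower), 1 of 11 T cell markers (lower), 1 of 7 adipocyte markers (lower), 1 of 8 endothelial markers (higher), 3 of 8 skeletal muscle markers (2 higher and 1 lower) and 0 of 8 melanocyte markers. Against the double knockout, 3 sebocyte, 4 fibroblast, 3 Langerhans and dendritic cell and 4 adipocyte markers were lower in cFLIP KO, and after the trend 1, 1, 1 and 4 in this order. Lower there too were 4 keratinocyte, 1 T cell and 1 skeletal muscle marker, and 2, 1 and 1 after the trend. Higher were 2 neutrophil, 2 monocyte and macrophage and 1 endothelial marker, and 3, 2 and 1 after the trend. After the trend, 1 keratinocyte, 1 fibroblast and 1 skeletal muscle marker were higher as well. Of all genes, 3.88% were higher and 9.15% lower in cFLIP KO against TNF KO, or 3.9% and 4.95% after the trend. Against the double knockout 3.32% were higher and 8.07% lower, or 3.48% and 4.01% after the trend. In the double knockout against TNF KO 0.629% were higher. The part of these cell types in the differences of the 9 genes was not tested. In such pooled tissue, fewer cells of a type and less RNA per cell cannot be told apart. Plasma cells use XBP1 heavily, and 0 of 8 of their markers passed 2-fold in any comparison. However, 6 of the 8 had equal values in cFLIP KO and TNF KO, among them Jchain at 2.75 on every array. Of the others, Derl3 differed by 0.80 and Prdm1 by -0.01. Markers with equal values cannot show a change, so this count does not decide whether plasma cells differed.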

How the data were processed

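The authors pooled epidermal RNA per genotype, hybridised Affymetrix Mouse Gene 2.0 ST arrays and deposited log2 values. The methods name robust multiarray (RMA) correction of the background, quantile normalization and a custom grouping of probes by ENTREZ gene. Quantile normalization gives the arrays it covers a common distribution, which the deposited values did not share. Their SD over genes was 2.06 (TNF KO), 1.78 (cFLIP KO) and 2.04 (double knockout), with medians of 4.11, 4.41 and 4.13. Why they differ was not tested. The log base is not stated and was read from the range of the values, 2.48 to 13.82. For RMA no version was given in the sources used here. The genotype label set the groups. One title, that of the double knockout, does not match its other labels, which were followed. Where the methods give other numbers of pooled animals and days of tamoxifen than the labels, the labels were used.

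Probe sets were named by ENTREZ identifier from the platform annotation. Of 24973, 958 had no symbol and were left out, and 4 symbols with several probe sets were averaged. The analysis of variance of the study could not be repeated with 1 array per genotype. Differences of log2 values were taken, with 2-fold (1 on the log2 scale) as the limit. No depth exists for arrays, and their number limits the precision. The members, lists and motifs were chosen with earlier results of these data known. All 9 members were named. Up to 5 genes per pathway list were named, those furthest from 0 in cFLIP KO against TNF KO, and the nearest patterns by distance. List genes were matched by symbol, or by identifier for 3 pathway genes. Listed genes that were not matched, among them Eif2s1, Eif2s3x, Phgdh and Gdf15, are not analysed here. For 12 marker lists, the numbers of genes past 2-fold are given.

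The alternatives were scaling by the mean of 7 measured of 10 listed reference genes or by Actb, repeated quantile normalization, subtraction of a lowess trend on the mean signal of the 2 arrays compared (share 0.3, 3 iterations), a floor at the 25th percentile, the brightest probe set, folds of 1.5 and 3, the mean over members and leaving out dim genes. A value without a test was taken as moved beyond 1.5-fold. The differences, their 2-fold counts and the lowess step were tested on simulated arrays, and the motif search on planted words. The other settings were not tested in this way. The work was done with statsmodels 0.14.6, numpy 2.4.6, pandas 2.3.3 and matplotlib 3.10.9 in Python 3.11.15.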

Additional observations from a re-analysis of the deposited data

How the results depend on the processing

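With 1 array per genotype, no setting adds replicate error. No paired analysis was possible because each genotype has 1 array and no shared replicate number. The median of the 9 genes in cFLIP KO against TNF KO was -0.17 as deposited and became 0.088 with 7 reference genes as the scale, 0.25 after repeated quantile normalization and 0.57 after the lowess trend. Against the double knockout it was -0.21 and turned to 0.10, 0.16 and 0.49 under these and to 0.35 under Actb. Scaling by Actb moved the median of all genes by -0.52 in the double knockout against TNF KO and 0.56 in cFLIP KO against the double knockout, and reference genes moved it by 0.25 in cFLIP KO against TNF KO and 0.32 against the double knockout. Against TNF KO, the number of the 9 at least 2-fold higher in cFLIP KO was 0 as deposited and 1 under reference genes, repeated quantile normalization and lowess, and the number lower was 2 and 1. Of all 24011 genes, 1757 were higher and 1470 lower under reference genes. After repeated quantile normalization 1024 were higher and 1162 lower, and after lowess 937 and 1189. Against the double knockout the same settings gave 1 higher and 1 lower, and Actb 3 higher (Ddit3, Chac1 and Trib3) and 1 lower. Under Actb, 3423 of all 24011 genes were higher and 637 lower in that comparison, beside 798 and 1937 as deposited. All-gene numbers there were 1887 higher and 1047 lower under reference genes, 923 and 985 after repeated quantile normalization, and 836 and 964 after lowess. At 1.5-fold, 3 were higher and 4 lower in both comparisons. At 3-fold, 0 were lower against TNF KO and 1 against the double knockout. Shares of all genes at 1.5-fold and 3-fold were not computed, so these counts have no background beside them. Of all genes past 2-fold in cFLIP KO against TNF KO, 29.8% were higher as deposited, 54.4% under reference genes, 46.8% after repeated quantile normalization and 44.1% after lowess. For single named genes, 635 of the recomputed differences moved by less than 1.5-fold, 67 moved by more, and no difference past 2-fold changed sign. The 635 are no measure of stability. Scaling by Actb or reference genes shifts every gene alike, by at most 0.56, which is below the limit of 0.58. The floor lay below the signals of the named genes, and the brightest probe set concerns only 4 symbols. In effect only repeated quantile normalization and the lowess trend could move a named gene. The floor and leaving out dim genes could move no count of the 9, because all 9 lay above the floor of 3.17 and none was dim. The brightest probe set, which concerns only 4 symbols on the array, moved none either. The cause of these changes was not tested.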
